A study of Mus musculus with 12 samples.

Results

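The cytosolic and mitochondrial heat shock genes followed here across 12 mouse livers were Hspb1, Hspb8, Hspa1a, Hspa1b, Hspa8, Dnajb1, Hsp90aa1, Hsph1, Hspd1 and Hspe1. These 10 genes were chosen by name, and the array annotation gave them 23 of its 22690 probe sets, each naming 1 of the 10 genes alone. They are 10 of 12393 named genes, and 9 of the 8469 genes bright enough to be tested. Livers came from 8-week-old adult male C57BL6/J mice in 4 groups of 3: liver-null mice given acetaminophen (APAP), wild-type mice given APAP, liver-null mice given saline and wild-type mice given saline. The labels call the liver-null mice Txnrd1 null: a conditional allele of Txnrd1, the cytosolic thioredoxin reductase gene, was disrupted by albCre, a Cre recombinase driven in hepatocytes, so other liver cells are expected to keep the gene. The APAP dose was 100 mg/kg into the peritoneum, and RNA was taken 8 hours later and read on 1 Affymetrix array per liver. In whole liver, fewer cells of a type and less RNA per cell cannot be told apart.

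Heat shock proteins are chaperones, which bind proteins that are unfolded or newly made and keep them from clumping. Small heat shock proteins hold damaged proteins, the HSP70 machine refolds them with J-domain partners and nucleotide exchange factors, HSP90 matures signalling proteins, and the HSP60 and HSP10 chaperonin folds proteins inside mitochondria. Heat, oxidants and reactive drug metabolites switch many of these genes on through the transcription factor HSF1, which binds repeats of the unit GAA and its complement TTC.

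The promoters are shown first because the genes whose values moved most between livers, Hspb1 and Hspa1b, carry these repeats, as does the shared mitochondrial promoter whose genes moved little. Sequences are from RefSeq on GRCm38.p6, and 8 of the 10 genes had one. The searched stretch ran from 250 bases before the start of the gene to 50 after it. Capitals mark a pair of units (GAANNTTC or TTCNNGAA, each of which reads the same on both strands), and each line below gives the 250 bases before the start.
Hspb1, chr5:135887669-135887918, plus strand: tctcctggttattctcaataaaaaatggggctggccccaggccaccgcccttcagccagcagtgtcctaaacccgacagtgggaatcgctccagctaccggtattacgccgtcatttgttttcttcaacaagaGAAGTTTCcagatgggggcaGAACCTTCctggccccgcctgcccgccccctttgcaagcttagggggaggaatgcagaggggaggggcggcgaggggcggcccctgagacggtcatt
Hspa1b, chr17:34959239-34959488, minus strand: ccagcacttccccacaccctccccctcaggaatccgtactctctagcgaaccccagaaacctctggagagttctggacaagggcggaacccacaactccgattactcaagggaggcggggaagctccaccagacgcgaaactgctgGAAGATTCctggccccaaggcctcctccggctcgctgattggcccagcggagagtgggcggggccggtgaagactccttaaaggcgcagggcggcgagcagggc
Hspe1, chr1:55087898-55088147, plus strand: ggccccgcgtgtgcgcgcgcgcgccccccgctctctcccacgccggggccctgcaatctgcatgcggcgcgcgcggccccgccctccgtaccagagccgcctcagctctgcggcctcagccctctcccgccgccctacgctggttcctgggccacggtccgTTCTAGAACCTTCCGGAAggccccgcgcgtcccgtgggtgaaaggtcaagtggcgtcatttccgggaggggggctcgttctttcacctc

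Counting -1 as the base before the start, Hspb1 held pairs at -117 to -110 and at -97 to -90, and Hspa1b held 1 pair at -104 to -97. The windows of Hspa1a and Hspa1b were identical at 296 of 300 bases, with the same pair at the same place. Hspe1 and Hspd1 lie head to head, and their annotated loci overlap by 96 bases. They shared an unbroken run of 4 units, at -89 to -72 before the Hspe1 start and at -144 to -127 before 1 of the 2 annotated Hspd1 starts. The pairs with 5 bases on each side are set out below to show how far they differ between the genes.
Hspb1, chr5:135887797-135887814, plus strand: caagaGAAGTTTCcagat
Hspb1, chr5:135887817-135887834, plus strand: gggcaGAACCTTCctggc
Hspa1b, chr17:34959330-34959347, minus strand: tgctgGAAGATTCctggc
Hsph1, chr5:149636357-149636374, minus strand: aatctTTCTCGAAggctc
Hspe1, chr1:55088054-55088081, plus strand: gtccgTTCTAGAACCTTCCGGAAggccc

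A pair was found in 7 of the 8 genes with a sequence, all but Dnajb1, against 17% of all 27025 genes in the table. In Hspb8 it lay after the start, at 3 to 10. A run of 3 units is GAA, TTC and GAA, or TTC, GAA and TTC, each 2 bases apart, and it contains pairs. Such a run was found in Hsph1, Hspd1 and Hspe1, against 0.662% of all genes. In Hsph1 it lay after each annotated start, at 37 to 49 from 1 and at 16 to 28 from the other. Hspd1 and Hspe1 hold the same run, and Hspa1a and Hspa1b have near-identical windows. These counts of genes are therefore not counts of separate sites. The core of the antioxidant response element, the site of NRF2 (TGACNNNGC on either strand), was found in Dnajb1 and Hsph1, against 14% of all genes. These are matches of letters in the reference, not measured binding.

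The values are log2 expression values made by the authors with RMA, which corrects background, normalizes the arrays and summarises the probes of a probe set. The number of arrays, 3 per group, limits the precision. Differences were tested with limma in 1 fit over all 12 arrays. Called genes are those with a p under 0.05 after Benjamini-Hochberg adjustment over 8469 genes. The brightest probe set on average stands for each gene, levels of different genes cannot be compared on an array, and ± is the SD of 3 arrays. The arrays fell apart by their upper quartile, which lay at 5.49 to 5.58 for 4 of them, 1 in each group (liver-null APAP 17, wild-type APAP 14, liver-null saline 16 and wild-type saline 10), and at 5.73 to 5.85 for the other 8, a split that the labels do not explain. It is followed below as the set of 4 and the set of 8. Txnrd1 itself averaged 10.44 in liver-null APAP and 9.68 in wild-type APAP livers, 0.76 higher (adjusted p = 0.0146, limma), and 10.35 in liver-null saline and 9.61 in wild-type saline livers, so it goes against the label and does not check it. Whether its probes lie in the deleted part was not analysed here, and liver-null below means the livers labelled so. Hepatocyte markers were bright in every group: the mean of 8 markers was 12.32 to 12.45 in liver-null APAP, 12.41 to 12.47 in wild-type APAP, 12.29 to 12.38 in liver-null saline and 12.36 to 12.52 in wild-type saline livers.

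Of the 9 genes tested, Hspb1 was the one called between the genotypes when all arrays had equal weight. It encodes HSP27, a small heat shock protein that holds unfolded proteins and stabilises actin. It read 8.26, 7.03 and 7.52 in liver-null APAP livers, against 4.64, 5.33 and 4.95 in wild-type APAP livers. The groups stood well apart: the dimmest liver-null array was brighter than the brightest wild-type array. The means were 7.60 ± 0.62 and 4.97 ± 0.34, a 6.19-fold difference (log2 2.63, SE 0.46, 95% interval 1.63 to 3.63, adjusted p = 0.0226, limma).

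The separate probe set of Hspb1, 1425964_x_at, gave the same picture. It read 8.11, 7.09 and 7.19 in liver-null APAP livers, against 4.55, 4.89 and 4.47 in wild-type APAP livers, which again did not overlap. Its log2 difference was 2.82 (SE 0.43, adjusted p = 0.0166, limma over all 22690 probe sets). The pair of probe sets followed each other across the 12 arrays with r = 0.983, as a description. For the brighter probe set the difference was 2.66 between the means of the set of 8 and 2.57 between the single arrays of the set of 4. Dropping 1 array left it at 2.30 (without liver-null APAP 2) to 2.92 (without liver-null APAP 3). The call held without liver-null APAP 3 (adjusted p = 0.0442, limma) and was lost without any other 1 of the 6 arrays, with adjusted p = 0.0561 to 0.117 (limma).

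In saline the genotypes were not separated at Hspb1. It read 6.03, 7.63 and 5.82 in liver-null saline livers, against 6.05, 5.35 and 6.31 in wild-type saline livers. The liver-null group was split, with liver-null saline 5 well above the rest and its other 2 livers among the wild-type values. The log2 difference was 0.59 (SE 0.46, adjusted p = 0.722, limma), and 0.02 without liver-null saline 5. It was 1.13 in the set of 8 and -0.48 in the set of 4. When limma weighted each array by how well it followed its group, the difference was 1.75 and was called (adjusted p = 0.0108, limma). The same weights called 1323 of all 8469 genes tested in saline, against 54 with equal weights. The value of 1.75 lay above the 0.02 to 0.93 left by dropping 1 array with equal weights. The weight that each array received was not analysed here.

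The APAP comparisons within each genotype pointed opposite ways at Hspb1, and neither passed. In liver-null livers the difference between APAP and saline was 1.11 (SE 0.46, adjusted p = 1.000, limma), with overlapping groups. In wild-type livers it was -0.93 (SE 0.46, adjusted p = 1.000, limma), and the APAP arrays all lay below the saline arrays, by 5.33 against 5.35 at the nearest. The test of whether the genotype difference depends on APAP gave a log2 value of 2.04 (SE 0.65, 95% interval 0.62 to 3.45). Its unadjusted p of 0.00878 ranked 5 of 8469 genes and did not pass (adjusted p = 0.999, limma). With array weights the value was 0.56.

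Averaged over both treatments, Hspb1 was 3.05-fold higher in the 6 liver-null livers (log2 1.61, SE 0.32, adjusted p = 0.0175, limma). The groups overlapped in this comparison, since 2 liver-null saline livers lay below the brightest wild-type saline liver. The call held without any 1 of the 12 arrays, with log2 differences of 1.33 to 1.78 and adjusted p = 0.0115 to 0.0485 (limma). The separate probe set gave 1.76 (adjusted p = 0.0124, limma over all probe sets).

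Hspb8, the other small heat shock gene, whose protein works with BAG3 to send damaged proteins to autophagy, showed no such difference. It read 9.61, 9.25 and 9.53 in liver-null APAP livers, against 9.50, 9.46 and 9.19 in wild-type APAP livers. The values were interleaved, with a log2 difference of 0.08 (95% interval -0.33 to 0.49). In saline the difference was -0.22 (95% interval -0.64 to 0.19). Its probe sets 1417014_at and 1456434_x_at followed the first with r = 0.948 and r = 0.914. Probe set 1456434_x_at lay at 2.21 to 2.69, close to the 40th percentile of the arrays.

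**Figure D1:**
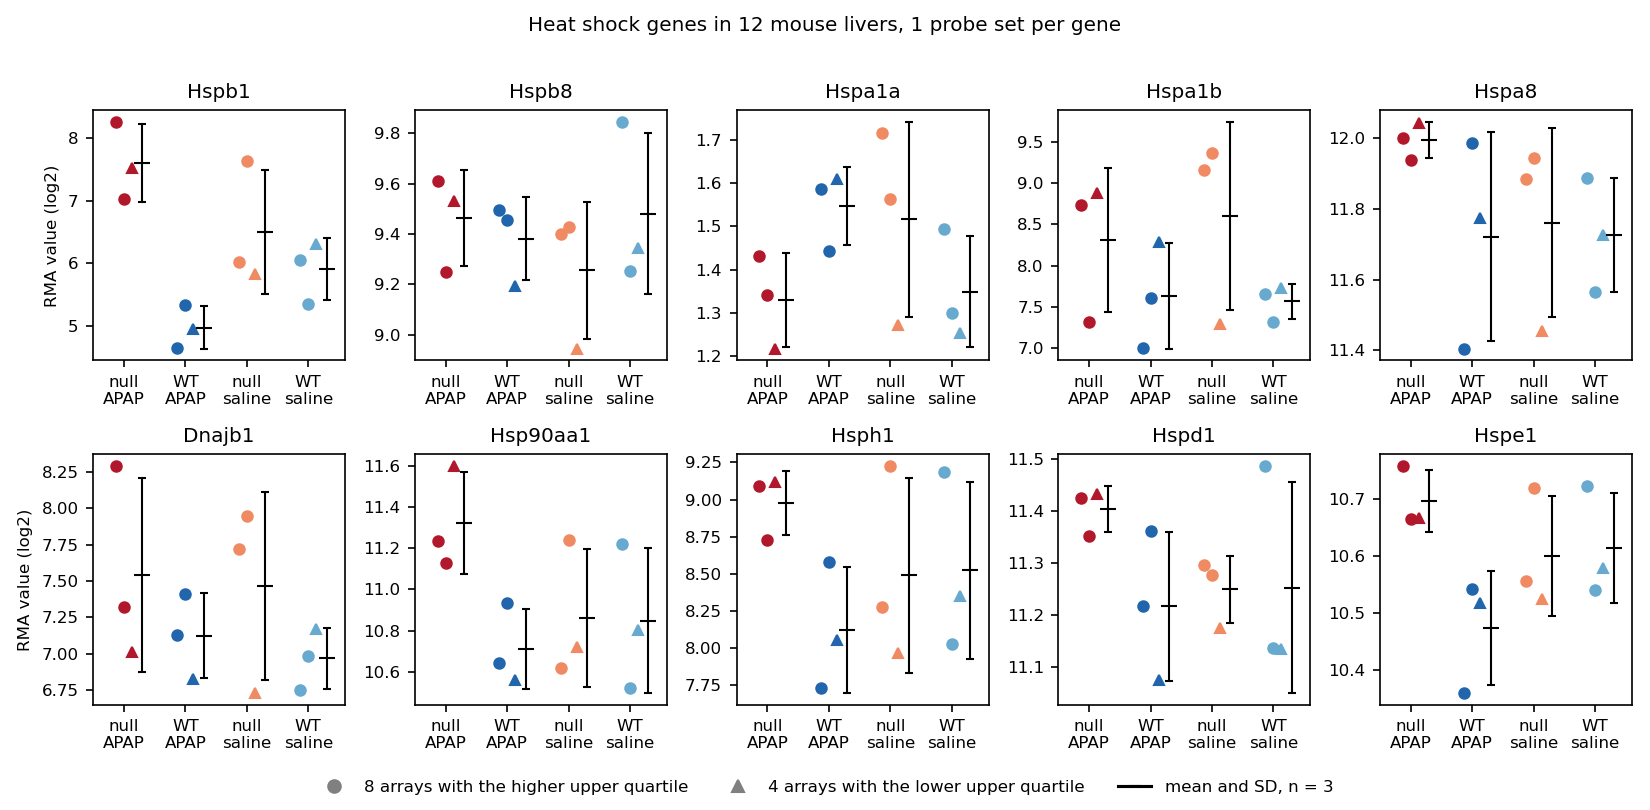
Log2 RMA value (vertical axes, a separate range in each panel) of the 10 heat shock genes in each liver, by group from liver-null APAP to wild-type saline. Circles are the 8 arrays with the higher upper quartile, triangles the other 4, and bars the mean and SD of 3 arrays. Hspb1 is at 7.03 to 8.26 in liver-null APAP livers and at 4.64 to 5.33 in wild-type APAP livers, while Hspa1a stays between 1.22 and 1.72.

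Among the HSP70 genes, the 4 brightest livers for Hspa1b were liver-null. Hspa1a and Hspa1b encode the near-identical HSP70 proteins that stress induces most strongly, and Hspa8 encodes HSC70, the HSP70 made in all cells. Hspa1b read 8.74, 7.31 and 8.88 in liver-null APAP livers, against 7.004, 7.60 and 8.28 in wild-type APAP livers. It read 9.16, 9.36 and 7.30 in liver-null saline livers, against 7.66, 7.32 and 7.72 in wild-type saline livers. Those 4 were liver-null saline 4 and 5 and liver-null APAP 2 and 17, wild-type APAP 14 came next at 8.28, and liver-null saline 16 and APAP 3 lay in the wild-type range.

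No comparison of Hspa1b passed with equal array weights. With array weights it was called in saline (1.73, adjusted p = 0.0125, limma) and over both treatments (1.03, adjusted p = 0.0402, limma). Those weights called 1323 and 1409 of all 8469 genes tested in these comparisons. The genotype difference was 0.68 after APAP (SE 0.55, adjusted p = 0.876, limma) and 1.04 in saline (SE 0.55, adjusted p = 0.504, limma). Averaged over both treatments it was 0.86 (SE 0.39, unadjusted p = 0.0474, adjusted p = 0.286, limma). With equal weights the saline difference was 1.69 without liver-null saline 16 and 0.66 without liver-null saline 5. It was 1.77 in the set of 8 and -0.43 in the set of 4.

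The other probe sets of Hspa1b showed the same livers with a wider spread. Probe set 1427126_at read 7.96, 8.33 and 4.09 in liver-null saline livers, against 5.27, 4.92 and 5.08 in wild-type saline livers. It read 7.15, 5.25 and 7.09 in liver-null APAP livers, against 4.36, 5.21 and 5.27 in wild-type APAP livers. Liver-null saline 16 was thus the dimmest liver and its 2 group mates the brightest. The SD of this probe set was 2.35 in liver-null saline and 0.17 in wild-type saline livers, and the difference averaged over both treatments was 1.63 (SE 0.65, adjusted p = 0.322, limma over all probe sets). The 3 probe sets followed each other with r = 0.954 to 0.995.

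**Figure D2:**
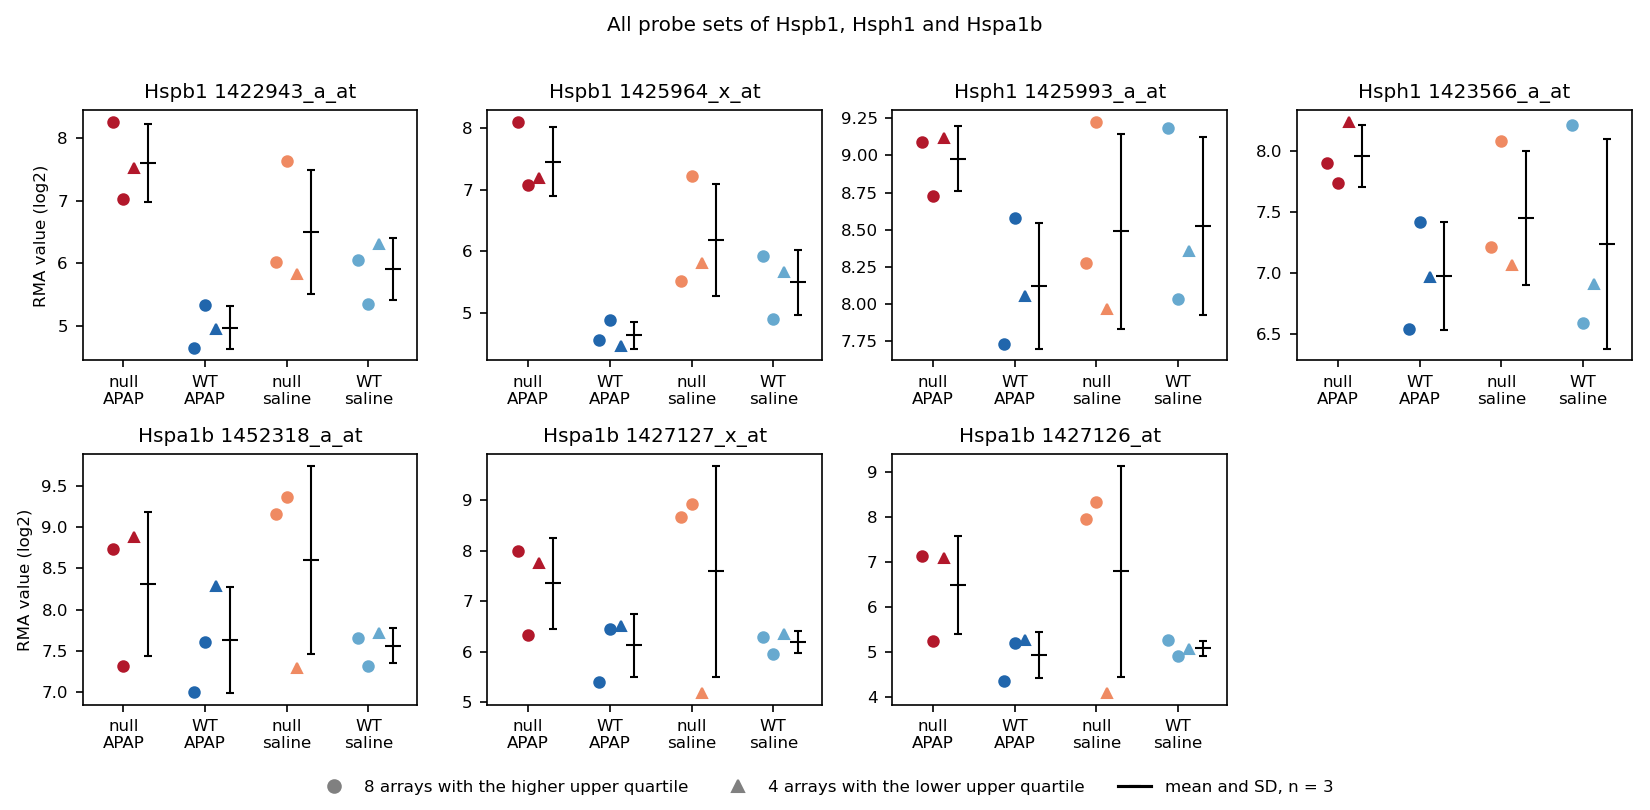
Log2 RMA value (vertical axes) of every probe set of Hspb1, Hsph1 and Hspa1b in each liver, by group; circles, triangles and bars are as in the plot of all 10 genes. The 3 probe sets of Hspa1b each place liver-null saline 4 and 5 at the top and liver-null saline 16 at or below the wild-type saline livers, with 1427126_at at 7.96, 8.33 and 4.09.

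Hspa1a was not tested. Its only probe set read 1.43, 1.34 and 1.22 in liver-null APAP livers, against 1.59, 1.44 and 1.61 in wild-type APAP livers. It read 1.72, 1.56 and 1.27 in liver-null saline livers, against 1.49, 1.30 and 1.25 in wild-type saline livers. All were below the 40th percentile of their arrays, 2.42 to 2.48, so this probe set was too dim to compare. The coding sequences of Hspa1a and Hspa1b are nearly the same, and whether the Hspa1b probe sets also bind Hspa1a transcripts was not tested.

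Hspa8 differed little in its brightest probe set, which read 12.002, 11.94 and 12.04 in liver-null APAP livers, against 11.40, 11.99 and 11.77 in wild-type APAP livers. The groups overlapped, and the log2 difference was 0.27 (95% interval -0.10 to 0.65). In saline it was 0.04 (95% interval -0.34 to 0.41). Probe set 1455789_x_at followed the brightest with r = 0.811 and gave a difference of 0.28 after APAP. The other 2 probe sets did not follow it as closely (r = 0.194 and 0.262). Probe set 1420622_a_at was at 11.55 to 11.99 on the set of 4 and at 10.22 to 11.27 on the set of 8, and ran against 1431182_at with r = -0.670. Values of Hspa8 are therefore given for the brightest probe set.

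The partners of HSP70 were not called in any comparison with equal array weights. Dnajb1, the J-domain protein HSP40 that delivers clients to HSP70, read 8.29, 7.32 and 7.01 in liver-null APAP livers, against 7.13, 7.41 and 6.83 in wild-type APAP livers. It read 7.72, 7.94 and 6.73 in liver-null saline livers, against 6.75, 6.99 and 7.17 in wild-type saline livers. Liver-null APAP 2 and saline 4 and 5 were the brightest 3, and both comparisons overlapped. The differences were 0.42 after APAP (SE 0.35, adjusted p = 0.894, limma) and 0.49 in saline (SE 0.35, adjusted p = 0.682, limma). Without liver-null APAP 2 the APAP difference was 0.04. With array weights the saline difference was 0.83 and was called (adjusted p = 0.0401, limma), as were 1323 of all 8469 genes tested.

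Hsph1, the HSP110 nucleotide exchange factor of HSP70, read 9.09, 8.73 and 9.12 in liver-null APAP livers, against 7.73, 8.58 and 8.06 in wild-type APAP livers. These groups did not overlap. The difference was 0.86 (SE 0.35, 95% interval 0.08 to 1.63), which did not pass over all genes (unadjusted p = 0.0336, adjusted p = 0.467, limma). In saline it read 8.28, 9.23 and 7.97 in liver-null livers, against 9.19, 8.03 and 8.35 in wild-type livers, with a difference of -0.03 (95% interval -0.81 to 0.74). With array weights it was 0.77 (adjusted p = 0.0944, limma), and the interaction was -0.19, against 0.89 with equal weights. Each saline group held 1 liver above 9, liver-null saline 5 and wild-type saline 8, so the spread within the groups was wider than any difference between them.

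Hsp90aa1, the stress-inducible cytosolic HSP90, gave a similar order. It read 11.23, 11.13 and 11.60 in liver-null APAP livers, against 10.64, 10.93 and 10.56 in wild-type APAP livers, with no overlap. The difference was 0.61 (SE 0.22, 95% interval 0.14 to 1.08; unadjusted p = 0.0158, adjusted p = 0.331, limma). In saline the difference was 0.01 (95% interval -0.46 to 0.49). With array weights the saline difference was 0.48 (adjusted p = 0.0810, limma), and the interaction was -0.07 against 0.60 with equal weights. The weighted mean over both treatments was called (0.45, adjusted p = 0.0444, limma), as were 1409 of all 8469 genes tested. Its probe set 1426645_at gave 0.75 after APAP (SE 0.30), with an adjusted p of 0.630 (limma over all probe sets).

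The mitochondrial chaperonin genes had group SDs of 0.04 to 0.20 and were not called. Hspe1, which encodes the HSP10 lid of the chaperonin, read 10.76, 10.66 and 10.67 in liver-null APAP livers, against 10.36, 10.54 and 10.52 in wild-type APAP livers. The groups did not overlap, but the difference was only 0.22 (95% interval -0.01 to 0.46; adjusted p = 0.593, limma). Hspd1, which encodes HSP60, read 11.43, 11.35 and 11.43 in liver-null APAP livers, against 11.22, 11.36 and 11.07 in wild-type APAP livers. The difference was 0.19 (95% interval -0.08 to 0.46), with wild-type APAP 13 inside the liver-null range. In saline the differences of Hspe1 and Hspd1 were -0.01 and -0.0034, with 95% intervals of -0.25 to 0.22 and -0.27 to 0.27. The pair of genes shares a promoter, but their likeness was ordinary among the members. Their r over the 12 arrays was 0.651, beside a median of 0.61 over the 36 pairs of members. After the group means were removed it was 0.537, beside a median of 0.58. Hspe1 followed Hsph1 more closely (r = 0.927).

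**Figure D3:**
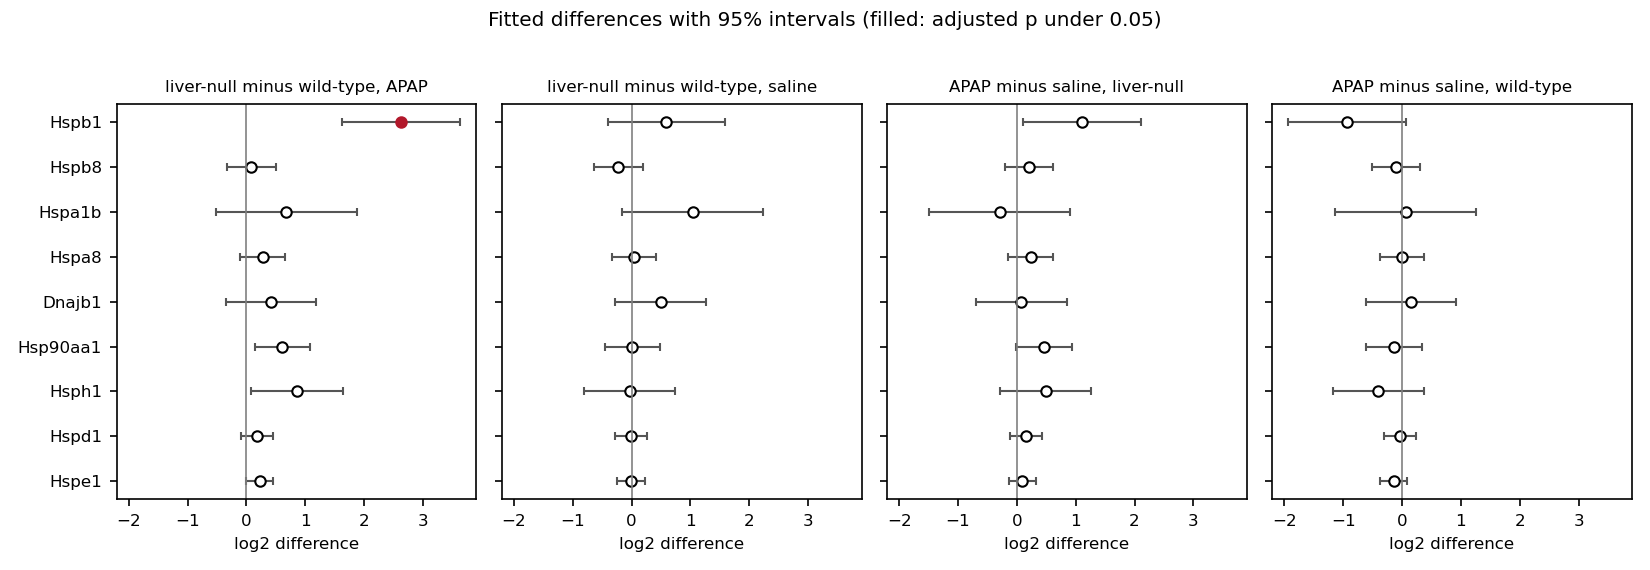
Fitted log2 differences (horizontal axis) of the 9 tested heat shock genes in 4 comparisons, with 95% intervals from limma; the filled point has an adjusted p under 0.05. After APAP all 9 points lie above 0, from 0.08 for Hspb8 to 2.63 for Hspb1, which alone is filled.

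Counted over the genes, the comparison of the genotypes after APAP called 1 of the 9 tested members higher, Hspb1, and 0 lower. Over all genes tested, 0.579% were called higher in it and 0.189% lower. All 9 members had a difference above 0, with a median of 0.42, whereas 49.3% of all genes tested were above 0 and their median was -0.0027. An unadjusted p under 0.05 was reached by 3 members (Hspb1, Hsp90aa1 and Hsph1), against 9.02% of all genes (limma). The members vary together, so their shared sign is not 9 separate observations. Hspb1, Hsp90aa1, Hsph1 and Hspe1, 4 of 9, were higher with no overlap between the groups, against 6.97% of all genes tested. The members were chosen with results of this comparison already known, and these counts describe them without a test of the set.

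In saline 0 of 9 members were called, against 0.638% of all genes, and 0 had an unadjusted p under 0.05, against 12.2% (limma). Of the 9 members 5 were above 0 and 4 below, where 44.8% of all genes were above, with a median of 0.01 beside -0.03 for all genes. Within the genotypes, APAP called 0 members and 0 genes at all: in liver-null livers 8 of 9 differences were above 0 (median 0.21), against 55.9% of all genes, and in wild-type livers 2 of 9 (median -0.10), against 45% of all genes. Hspd1 was higher after APAP with no overlap in liver-null livers, against 3.18% of all genes, and Hspb1 lower with no overlap in wild-type livers, against 2.79%. At an unadjusted p under 0.05 stood 1 member in liver-null livers, Hspb1, against 0.697% of all genes, and 0 members in wild-type livers, against 1.69% (limma). These 2 comparisons and the interaction share arrays with the genotype comparisons. The interaction called 0 members of 0 genes (limma), with 1 member, Hspb1, at an unadjusted p under 0.05, against 1.29% of all genes, and 7 of 9 members above 0, against 56.8%. Averaged over both treatments 1 member was called higher, Hspb1, against 2.28% of all genes, and 2 members, Hspb1 and Hspa1b, had an unadjusted p under 0.05, against 17% (limma). In that comparison 8 of 9 members were above 0, against 46.8% of all genes.

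The livers differed in the whole set as well as in single genes. Liver-null APAP 2 and liver-null APAP 17 were each among the 3 brightest of the 12 arrays for 7 of the 9 tested members, liver-null saline 5 for 6 and wild-type saline 8 for 4. Liver-null saline 16 and wild-type APAP 14 were each among the 3 dimmest for 6 members, and wild-type APAP 12 for 5. The livers high in the set were thus found in both treatments, and the liver-null saline group held both a high and a low liver. Across the 36 pairs of members the correlation over the 12 arrays ran from 0.25 to 0.93 with a median of 0.61, and after the group means were removed from 0.06 to 0.92 with a median of 0.58. Over all pairs of tested genes the median was 0.11. The arrays of a pair share their RNA, labelling and normalization, and these correlations are descriptions.

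**Figure D4:**
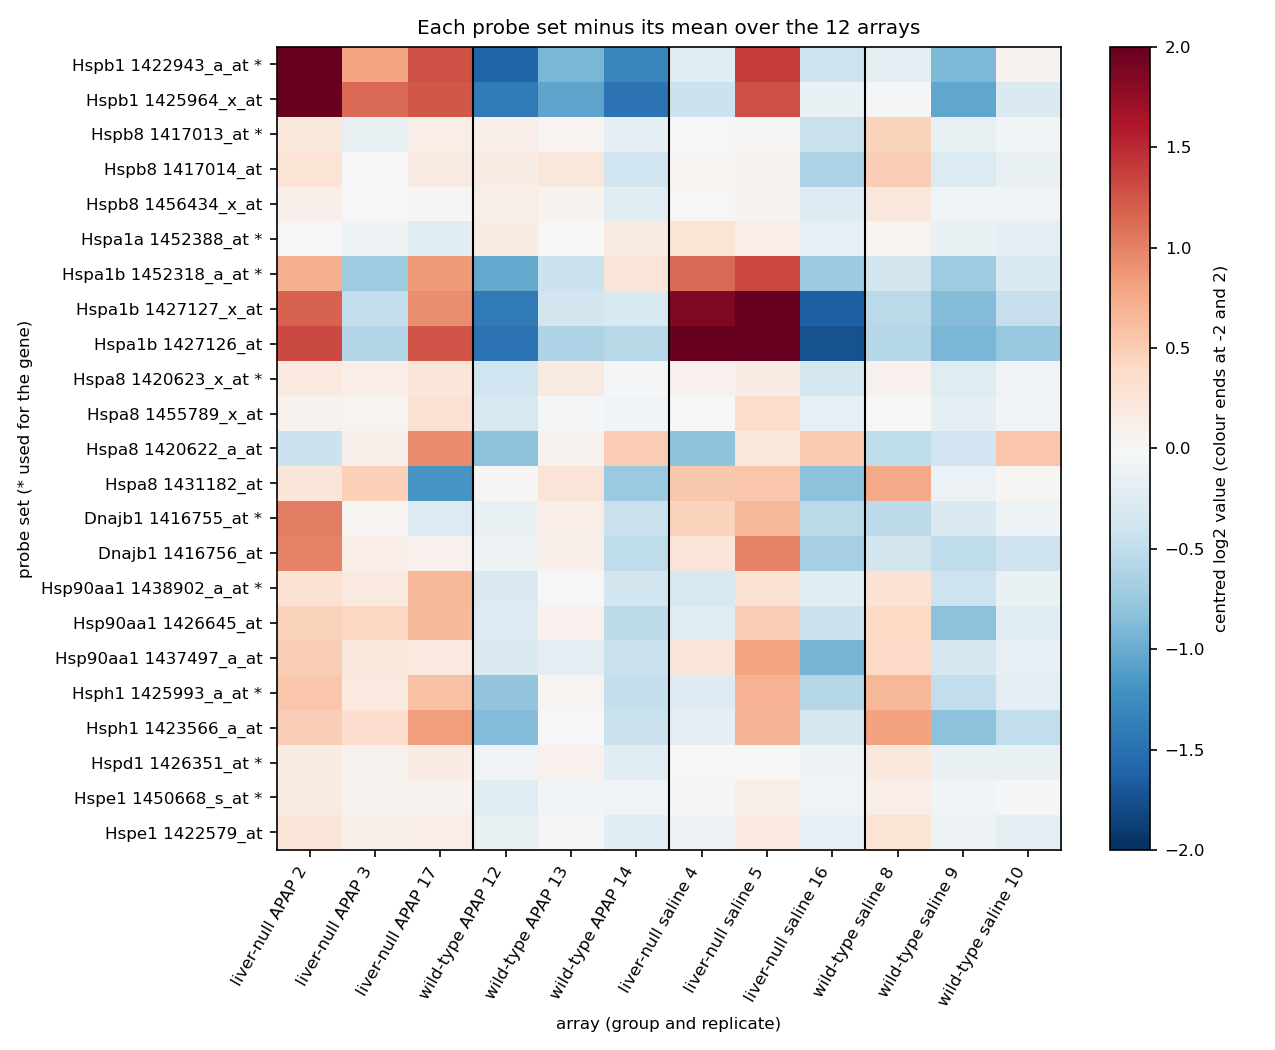
Log2 value of each of the 23 probe sets minus its own mean over the 12 arrays (colour), with arrays in columns by group. Red is above and blue below that mean; liver-null APAP 2 and liver-null saline 5 are red for most rows, and liver-null saline 16 and wild-type saline 9 blue for nearly all.

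The gene whose values followed Hspb1 most closely was Abcc5, an organic anion exporter (r = 0.900 over 12 arrays, and 0.853 after group means were removed). Pgd, an enzyme of the pentose phosphate pathway (0.885 and 0.605), and Creld1 (0.879 and 0.633) came next. For Pgd and Creld1 the value fell after group means were removed, but these genes were picked by the first value. The closest gene of each tested member that was not called also reached r = 0.863 to 0.963. Values of this size are therefore not particular to Hspb1. Hsph1, not among the called genes, was followed most closely by Ahsa1, a co-chaperone that stimulates the ATPase of HSP90, at 0.963 and 0.956; it was looked up after its values were seen.

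Lists of other chaperone genes were set beside the members, with the share of all genes called. Of 11 tested genes of a list of further cytosolic HSF1-responsive chaperones, 0 were called after APAP (median log2 difference 0.15) and 0 in saline (median -0.19), against 0.768% and 0.638% of all genes in either direction. The largest values after APAP were 0.61 for Hspa4l, a relative of Hsph1, and 0.30 for Ahsa1, and in saline -0.59 for Serpinh1, a collagen chaperone, and -0.55 for Fkbp4, an HSP90 co-chaperone. Hspa4l had an adjusted p of 0.613 (limma), and the others had adjusted p-values of 0.565 for Ahsa1, 0.328 for Serpinh1 and 0.399 for Fkbp4 (limma).

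Of 13 other cytosolic chaperones and co-chaperones, 1 rose when the genotypes were averaged over both treatments and 0 fell, against 2.28% of all genes higher and 2.18% lower. That gene was Fkbp5, an HSP90 co-chaperone induced by glucocorticoids. It averaged 9.21 ± 0.87 in liver-null APAP and 7.96 ± 0.30 in wild-type APAP livers, and 9.16 ± 0.51 in liver-null saline and 7.95 ± 0.44 in wild-type saline livers. Its difference was 2.34-fold (log2 1.23, SE 0.28, adjusted p = 0.0309, limma). Of 13 genes of the cytosolic TRiC chaperonin and prefoldin 0 were called in any comparison, as were 0 of 11 other mitochondrial chaperones and proteases. Over all genes tested 0.768% were called after APAP, 0.638% in saline and 0 between APAP and saline or in the interaction. A count of 0 in lists this short therefore says little. Averaged over both treatments, Vbp1, a prefoldin subunit, differed by 0.34 (adjusted p = 0.128, limma). Clpx, the unfolding subunit of the ClpXP protease, differed by 0.36 in that average (adjusted p = 0.111, limma). In saline Clpx differed by 0.58 (adjusted p = 0.138, limma).

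Of 11 endoplasmic reticulum chaperones 0 were called in any comparison, where 0.768% of all genes were called after APAP and 0.638% in saline. Their differences between the genotypes were all above 0 in saline (median 0.24), where 44.8% of all genes were, and 3 of 11 were above 0 after APAP (median -0.04), where 49.3% of all genes were. Without liver-null saline 4 the saline median was 0.07, with 9 of 11 above 0. Without wild-type APAP 12 the APAP median was 0.04, with 9 of 11 above 0, and without liver-null APAP 2 it was 0.07, with 6 of 11 above 0. Of 5 tested genes of protein damage and oxidative stress, averaged over both treatments, 1 rose and 1 fell, against 2.28% of all genes higher and 2.18% lower. Trib3, a pseudokinase induced by ATF4, rose 1.56-fold (log2 0.64, SE 0.15, adjusted p = 0.0321, limma), and Gadd45a, a growth arrest gene, fell 2.12-fold (log2 -1.08, SE 0.27, adjusted p = 0.0478, limma). Hmox1, heme oxygenase and a target of both HSF1 and NRF2, had differences of 0.94 after APAP and 1.77 in saline with SE of 1.09 for each. Hsf1 could not be followed, since no probe set named it alone in the annotation used. Hsf2 read 1.67 to 2.46 and Hsf4 2.20 to 2.39, too dim to test. Hsbp1, a small binding partner of HSF1, differed by 0.10 after APAP (adjusted p = 0.956, limma).

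Markers of other cells were set beside these genes because smooth muscle also expresses Hspb1. The mean of 9 of 10 smooth muscle and stellate markers was 3.42 to 3.71 in liver-null APAP and 3.69 to 3.83 in wild-type APAP livers, and 3.26 to 3.62 in liver-null saline and 3.75 to 4.11 in wild-type saline livers. The ranges did not overlap in saline and met at the edge after APAP, with the liver-null side lower. Averaged over both treatments 1 of the 9 was called lower and 0 higher, against 2.18% and 2.28% of all genes. That gene was Pdgfrb, which fell 1.54-fold (log2 -0.62, adjusted p = 0.0248, limma). Whether the mix of cells bears on the Hspb1 values was not tested. The mean of 8 endothelial markers was 5.12 to 5.59 in liver-null APAP and 4.96 to 5.45 in wild-type APAP livers. In saline it was 4.89 to 5.59 in liver-null and 5.02 to 5.75 in wild-type livers. Of these markers 0 were called in either comparison, against 0.768% of all genes after APAP and 0.638% in saline. The mean of 10 acute phase genes was 9.85 to 10.05 in liver-null APAP and 8.44 to 10.98 in wild-type APAP livers, and 10.35 to 11.74 in liver-null saline and 8.66 to 10.13 in wild-type saline livers. Liver-null saline 4, high in Hspa1b, was the highest of all in the acute phase mean, and the part of that in the Hspa1b values was not tested. Of 7 skeletal muscle markers 0 were bright enough to be tested.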

How the data were processed

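Total RNA of 12 livers was labelled with biotin in 1 round of amplification, as the labels' protocols state. The deposited log2 values per probe set were made by the authors with RMA, per the submitters' processing notes, with version, settings and genome build not given in the sources used here. Gene names come from the array platform's annotation, which can be old: 20380 of 22690 have 1 symbol and 691 several. For each gene the brightest probe set on average was kept, and genes above their array's 40th percentile on 3 or more arrays were tested, which left 8469 genes and removed Hspa1a among the 10. limma 3.58.1 in R 4.3.3 fitted 4 group means (8 residual and 3.43 prior degrees of freedom), two-sided, with Benjamini-Hochberg adjustment over all genes tested. The fit was tested on simulated data of 8469 genes that varied independently. Of 100 genes given a log2 change of 1, 75% were called, and of 100 given a change of 2, 96%. Among the unchanged genes 15 were called. The changed genes were drawn at random, each with its own spread, so these shares do not hold for single members. The SE of the genotype difference after APAP was 0.11 for Hspe1, 0.46 for Hspb1 and 0.55 for Hspa1b.

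The members, comparisons and lists were chosen with earlier results of these data known. Named were the members, the called genes of each list (or its largest differences), and the 3 genes most like each called member; text on Ahsa1 with Hsph1 lies outside that rule. Within a group the sample titles differ only in a replicate number at the end, read here as separate mice. No replicate number is shared between groups. Pairs of arrays correlated at 0.986 to 0.998. The alternatives were the set of 4 arrays as a covariate, array weights, fits to the compared arrays, other filters, other probe set rules, quantile normalization, another variance prior and leaving out each array.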

Additional observations from a re-analysis of the deposited data

How the results depend on the processing

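After APAP the genotypes kept 1 called heat shock gene in 10 of 15 alternatives, over both treatments 1 in 19 of 20, and in saline 0 in 14 of 15. Between APAP and saline and for the interaction 0 of all genes were called in any alternative, so these counts say nothing on stability. With array weights 3 members were called in saline (Hspb1, Hspa1b and Dnajb1, with log2 differences of 1.75, 1.73 and 0.83). When both treatments were averaged 3 were called (Hspb1, Hspa1b at 1.03 and Hsp90aa1 at 0.45). Of all 8469 genes tested, 1323 were called in saline with array weights, against 54 without. Over both treatments 1409 were called with array weights, against 378 without. The same weights moved the Hspb1 interaction to 0.56. After APAP the count was 0 to 1 when single arrays were left out, and Hspb1 lost its call without liver-null APAP 2 (2.30), liver-null APAP 17 (2.67), wild-type APAP 12 (2.46), wild-type APAP 13 (2.81) and wild-type APAP 14 (2.62), each in turn and with 1 array fewer. With the set of 4 as a covariate Hspb1 was called after APAP (adjusted p = 0.0225, limma) and over both treatments (adjusted p = 0.013, limma). The count of all genes called after APAP ranged from 21 to 210 over 15 alternatives. No called value changed sign in any alternative. No paired analysis was possible because the groups share no replicate number. Hspa1a, below the 40th percentile on all arrays, could not be compared.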
